A study of Flaveria sonorensis and Flaveria ramosissima with 8 samples.

Results

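The abundant core examined here is a set of rows of the deposited leaf transcript table, selected on their mean TPM: each averaged 300 TPM or more over the 4 libraries of *F. ramosissima* and also over the 4 of *F. sonorensis*. TPM is a unit in which the reads of a transcript are divided by its length and scaled to a fixed total per library, so that levels can be compared between rows per unit of length. Of the 23519 rows in the table, 188 (0.799%) met the rule. The 8 RNA-seq libraries were made from mature leaves that had newly expanded. Plants of both species were kept at low CO2, which the labels give as 100 μmol m-2 s-1, with light of 200 μmol m-2 s-1 for 16 h followed by 8 h of darkness, a temperature of 22 °C and humidity of 70%. The labels also state 6 months, without saying what that period covers, and name no genotype or accession of either species. Nothing in the labels says whether the 4 libraries of a species came from separate plants, so p-values measure only the spread between these libraries, which may be technical. No library from another CO2 level was analysed here, and all comparisons are between species.

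Both species are intermediates between C3 and C4 photosynthesis. In a C3 leaf, Rubisco fixes CO2 directly, and its reaction with oxygen feeds photorespiration, the pathway that salvages the oxygenated product. In C3-C4 intermediates, the CO2 released in photorespiration is partly recaptured in the bundle sheath, the cell layer around the veins, and *F. ramosissima* is known to run a partial C4 cycle in addition. The most abundant nuclear transcripts of a green leaf are known to encode mainly proteins of photosynthesis, such as the small subunit of Rubisco and the light-harvesting proteins. The rows carry running numbers in place of gene names, and no source used here pairs these numbers with genes. Therefore no role can be given to any row below, and the leaf identity of the libraries could not be checked against marker genes. In RNA from whole leaves, fewer cells of a type and less RNA per cell cannot be told apart.

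The core was small in number and held a large part of the transcript abundance in both species. The summed abundance of the 188 rows was 382844 ± 18641 TPM for *F. ramosissima*, compared with 383572 ± 10811 TPM for *F. sonorensis* (mean ± SD over 4 libraries each). In *F. ramosissima*, they held 42.5, 41.7, 44.7 and 40.2% of the library TPM in replicates 1 to 4, with a mean of 42.3 ± 1.87%. In *F. sonorensis*, they held 44.7, 45.0, 45.2 and 42.9%, with a mean of 44.5 ± 1.08%. The ranges of the species overlapped. Each share was taken of the column total, which ran from 901451 to 911412 TPM in *F. ramosissima*, and from 849828 to 868947 TPM in *F. sonorensis*. The columns sum to less than the usual fixed total of TPM and differ between the species. The reason is not given in the sources used here. A scaling factor per library leaves the shares of a fixed set of rows unchanged but alters their summed abundance. The near-equal sums therefore hold for the deposited TPM only. These values are made of the same means that chose the rows, and hence are a description without a test.

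**Figure D1:**
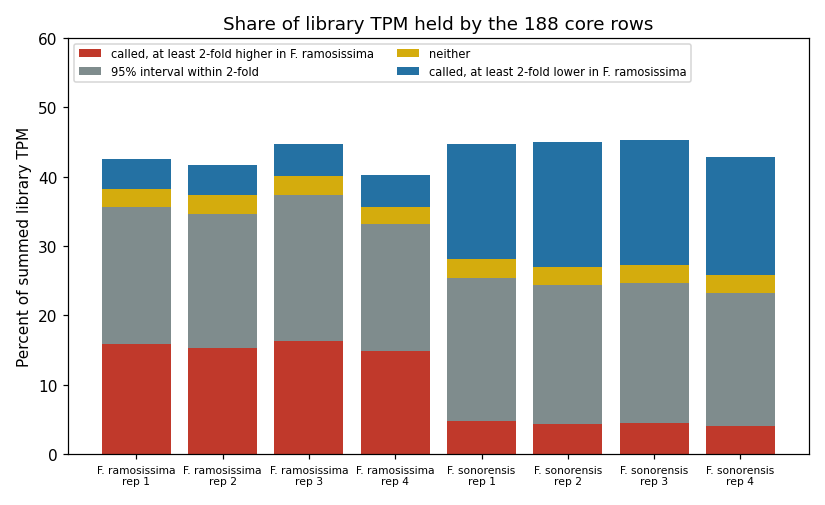
Percent of the summed TPM of each library (vertical axis) held by the 188 core rows, for replicates 1 to 4 of *F. ramosissima* (left) and of *F. sonorensis* (right). Colours divide the core by the difference between the species. The whole bars lie between 40.2 and 45.2%. The rows whose difference lay within 2-fold hold about the same part of every bar, which follows largely from how that class was made.

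Within the core, abundance was distributed alike in both species. The 5 highest core rows of a species held 22.5 ± 0.966% of the core TPM in *F. ramosissima*, compared with 22.4 ± 0.307% in *F. sonorensis*. The 20 highest held 49.9 ± 1.08% in *F. ramosissima* and 49.0 ± 0.765% in *F. sonorensis*, and the 50 highest held 71.0 ± 1.16% in *F. ramosissima* and 71.7 ± 0.547% in *F. sonorensis*. The mean abundance of core rows had a median of 968 TPM in *F. ramosissima*, with a range from 300.7 to 23885 TPM, and a median of 854 TPM in *F. sonorensis*, with a range from 302 to 29148 TPM. A mean of at least 1000 TPM was found for 93 core rows in *F. ramosissima*, for 89 in *F. sonorensis*, and for 65 in both.

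The threshold passed through a continuous range of values. The core rows closest to it averaged 300.7 ± 57.4 TPM in *F. ramosissima* with 325 ± 32.2 TPM in *F. sonorensis*, and 301 ± 19.4 TPM in *F. ramosissima* with 624 ± 35.3 TPM in *F. sonorensis*. The closest row outside had 299 ± 15.2 TPM in *F. ramosissima* with 1876 ± 177 TPM in *F. sonorensis*, and another had 841 ± 122 TPM in *F. ramosissima* with 295 ± 9.80 TPM in *F. sonorensis*. In at least 1 library of *F. ramosissima*, 18 core rows fell under 300 TPM, and 11 did so in *F. sonorensis*. The lowest single value of a core row was 158 TPM, and all 188 rows were above 0 in all 8 libraries.

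Rows that were abundant in only one of the species were also numerous. The core made up 43.2% of the 435 rows that reached this mean in *F. ramosissima* and 53.7% of the 350 such rows in *F. sonorensis*. Among the 100 highest rows of the whole table in each species, 73 belonged to the core in *F. ramosissima* and 87 in *F. sonorensis*. Of the 10 highest rows, 7 belonged to it in *F. ramosissima* and 10 in *F. sonorensis*. The 247 rows that reached 300 TPM in *F. ramosissima* alone held 25.6 ± 0.694% of its TPM. Of these, 100 still had 100 to 300 TPM in *F. sonorensis*, whereas 99 were listed at 0 in all of its libraries. The 162 rows that reached 300 TPM in *F. sonorensis* alone held 11.5 ± 0.207% of its TPM, with 90 at 100 to 300 TPM in *F. ramosissima* and 11 listed at 0 there.

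To describe how far the order of abundance was shared, core rows were ranked within each library and within each species mean. Between the species means, Spearman's rho was 0.569 over the 188 rows, and Pearson's r of log2(TPM + 1) was 0.624. These are correlations across rows, which are not independent replicates, within a set cut at 300 TPM on both axes. Over the 12558 tested rows above 0 in all 8 libraries, rho between the species means was 0.717. Those rows span a wider range of abundance, and a cut range tends to lower a correlation, so the values are not directly comparable. Over library pairs, rho of the core rows ranged from 0.930 to 0.972 within *F. ramosissima* (6 pairs) and from 0.951 to 0.990 within *F. sonorensis* (6 pairs). Over the 16 pairs between species, it ranged from 0.497 to 0.605, so every pair between species lay below every pair within a species. Any difference between the species in reference or in the matching of genes would enter only the pairs between species, and this was not tested. The lowest value belonged to replicate 3 of *F. ramosissima* with replicate 4 of *F. sonorensis*. Over a fixed set of rows, the rank agreement of a pair of libraries does not depend on a scaling factor per library. The choice of the core does, and rho was not taken over rows chosen after another scaling. The median change in rank of a core row was 27.5 places between the species means. Between single libraries, it was 28.5 places across species, compared with 7 places between replicates of *F. ramosissima* and 6.25 between replicates of *F. sonorensis* (medians over pairs).

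**Figure D2:**
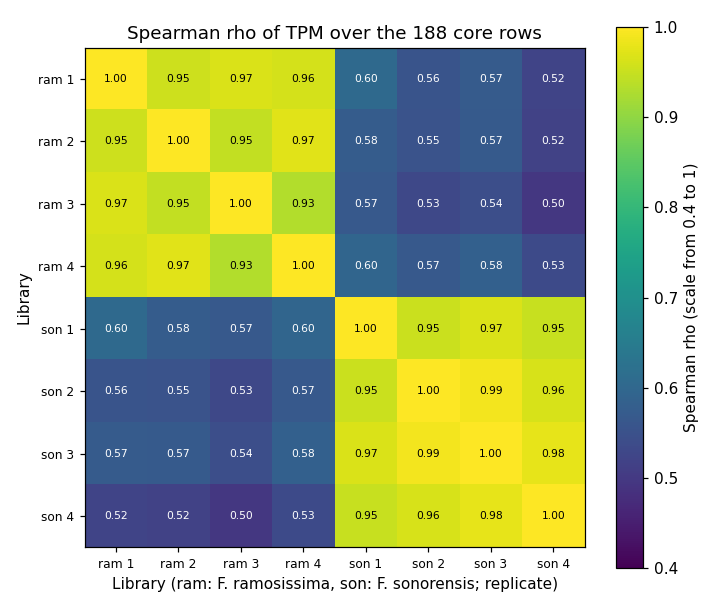
Spearman's rho of TPM over the 188 core rows for each pair of the 8 libraries, with libraries of *F. ramosissima* (ram) before those of *F. sonorensis* (son) on both axes and the colour scale running from 0.4 to 1. The blocks within a species hold values from 0.930 upwards, and the blocks between species hold values from 0.497 to 0.605.

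The rows at the top of the order were partly shared. Of the 10 highest core rows of each species, 5 were the same, and of the 50 highest, 31 were. Only 4 rows of the 188 held the same rank in both species, and these were ranks 2, 4, 13 and 15. The row ranked 13 had 6313 ± 524 TPM in *F. ramosissima*, compared with 6288 ± 185 TPM in *F. sonorensis*, and the row ranked 15 had 6201 ± 429 TPM in *F. ramosissima*, compared with 5998 ± 496 TPM in *F. sonorensis*. A change of at least 50 places was found for 60 rows and one of 10 places or less for 42 rows.

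In the deposited TPM, the highest row of each species changed its level and its rank. The highest core row in *F. ramosissima* had 26596, 21227, 23989 and 23729 TPM in the libraries of that species, replicate 1 first, against 4209, 4016, 4279.7 and 3829 TPM in *F. sonorensis*, where it ranked 23. Its values did not overlap between the species, and its level was 5.85 times as high in *F. ramosissima*. The highest core row in *F. sonorensis* was ranked 8 in *F. ramosissima*. It had 8158, 7606, 8668 and 7978 TPM in *F. ramosissima*, against 23607, 35204, 31037 and 26746 TPM in *F. sonorensis*, so its level was 3.60 times as high in *F. sonorensis*. Its log2 difference, *F. ramosissima* minus *F. sonorensis*, was -1.83, but only -0.36 after scaling by a trimmed mean of ratios and -1.86 after quantile normalization. For the highest row in *F. ramosissima*, the same 3 values were 2.54, 4.01 and 2.37. Among the 10 highest core rows in *F. ramosissima*, 3 were at least 2-fold higher there and 1 was at least 2-fold lower. Among the 10 highest in *F. sonorensis*, 5 were at least 2-fold lower in *F. ramosissima* and none was at least 2-fold higher. Rows picked as the highest of a species tend to be higher in that species, so the direction of these differences follows in part from the choice. The counts hold for the deposited TPM only.

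Differences between the species were then taken from a linear model fitted with limma to log2(TPM + 1) of all 16323 rows that averaged 1 TPM or more. A row was called at a Benjamini-Hochberg adjusted p below 0.05. Differences are *F. ramosissima* minus *F. sonorensis*, and the scale understates the change of low rows, which hardly bears on rows of this abundance. The rule for the core used the level in both species and set no condition on the difference, but the floor of 300 TPM limits how far a row can differ, so the counts below describe the rows and nothing is read from them against the other rows. In what follows, a percentage in brackets beside a count of core rows is the share of all tested rows that met the same condition. Of the 188 core rows, 142 were called (87.9% of all tested rows). Among them, 67 were higher (25.9% of all tested rows) and 75 were lower (62.0%) in *F. ramosissima*. In 128 core rows, values did not overlap between species (83.6% of all tested rows).

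Whether a row kept its level was read from the 95% interval of its difference, because a row that is not called is not thereby shown to be equal. In 97 core rows, the interval lay wholly within 2-fold, that is, between -1 and 1 on the log2 scale (15.0% of all tested rows). Of these, 53 were called with a small difference and 44 were not called. The share of all tested rows that were called and within 2-fold was not taken, so nothing is read from this split. A further 37 rows were called with a level at least 2-fold higher in *F. ramosissima* (22.0% of all tested rows), and 38 were called with a level at least 2-fold lower (50.1%). The remaining 16 rows met none of these conditions, and 14 of them were called. The median difference was -0.02 over the core, with quartiles at -0.70 and 0.60, and the median standard error of a row was 0.12.

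**Figure D3:**
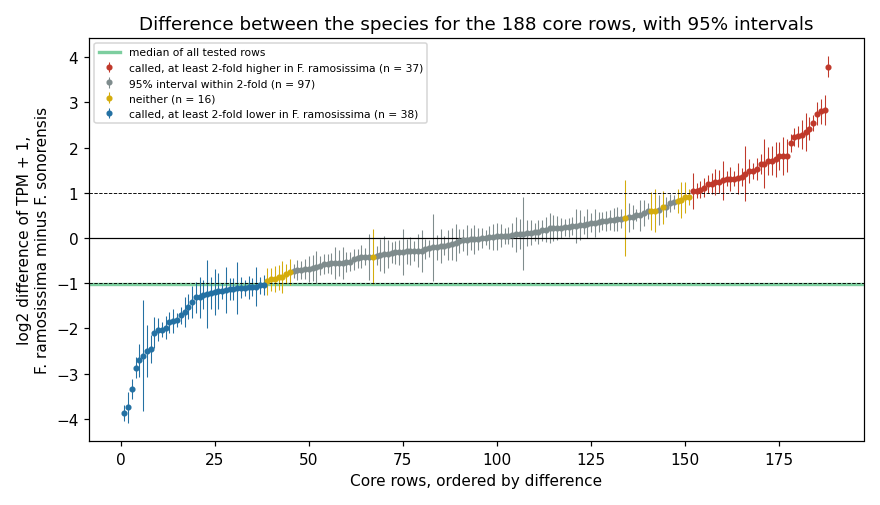
Difference in log2(TPM + 1), *F. ramosissima* minus *F. sonorensis*, for each of the 188 core rows in order of size, with 95% intervals from limma. Dashed lines mark 2-fold in each direction, and the green line marks the median of all 16323 tested rows, at -1.01. The core spreads from -3.86 to 3.79 around a median of -0.02. Because the rule set the same floor for both species, nothing is read from its distance to the green line.

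These classes hold for the TPM as deposited, since the level at which the libraries are set against each other moved them. The median difference over all tested rows was -1.01 in the deposited TPM, 0.24 after scaling by a trimmed mean of ratios (TMM) and -0.50 after quantile normalization. The median of the core was -0.02, 1.44 and -0.30 under these settings, so the core lay 0.99, 1.21 and 0.20 above the median of all tested rows. The rule set the same floor on both species means of the deposited TPM. This bears on the distances, and nothing is read from them about the core. After TMM scaling, 154 core rows were higher (45.7% of all tested rows) and 13 were lower (34.1%), from 167 called (79.8%). By the same conditions as above, 126 were at least 2-fold higher (34.7% of all tested rows). A further 6 were at least 2-fold lower (19.3% of all tested rows) and 34 lay within 2-fold (29.6% of all tested rows). All 37 rows at least 2-fold higher in the deposited TPM were so after TMM scaling, compared with 6 of the 38 lower rows and none of the 97 rows within 2-fold. After quantile normalization, 141 core rows were called (83.8% of all tested rows). Of these, 46 were higher (31.8% of all tested rows) and 95 were lower (52.0% of all tested rows). Then 25 of the 37 higher rows, 38 of the 38 lower rows and 76 of the 97 rows within 2-fold were placed in the same class. The deposited values cannot show which level is the true one.

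**Figure D4:**
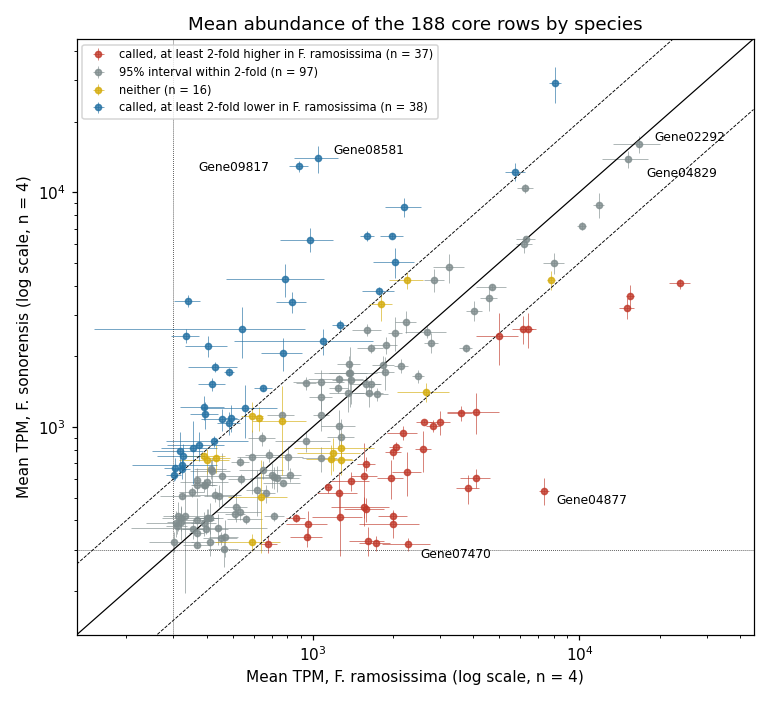
Mean TPM of the 188 core rows in *F. ramosissima* (horizontal axis) and in *F. sonorensis* (vertical axis), both on log scales, with bars of 1 SD over 4 libraries and colours by class of difference. The solid line marks equal levels, dashed lines 2-fold, and dotted lines the threshold of 300 TPM. The 6 named rows are labelled, and Gene02292 and Gene04829 lie near the line of equal levels.

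Among the called rows without overlap, Gene04877 had the largest difference towards *F. ramosissima*. Its level was 7832, 7099, 7401 and 7134 TPM in the *F. ramosissima* libraries, replicate 1 first, against 577, 563, 568 and 432 TPM in *F. sonorensis*. All *F. ramosissima* libraries lay far above all *F. sonorensis* libraries, and the row ranked 11 in the core of *F. ramosissima* and 142 in that of *F. sonorensis*. On the log2 scale, this was a difference of 3.79 ± 0.10 (standard error; adjusted p = 1.14e-09 by limma). Gene07470 came next, with 1761, 2729, 2012 and 2629 TPM in *F. ramosissima*, against 320.3, 287, 336 and 319 TPM in *F. sonorensis*. In *F. ramosissima*, replicates 2 and 4 were higher than 1 and 3 for this row, while the *F. sonorensis* libraries lay close together near the threshold. Its difference was 2.83 ± 0.15 (adjusted p = 7.94e-08 by limma), and its rank of 37 in *F. ramosissima* and 185 in *F. sonorensis* made the largest change in the core, 148 places. Both rows were also higher in *F. ramosissima* after TMM scaling, by 5.26 and 4.29, and after quantile normalization, by 3.43 and 2.59.

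The rows that followed in this direction were similar in level to each other. The third had 3988, 3877, 4139.6 and 3272 TPM in *F. ramosissima*, against 621, 540.5, 585 and 444 TPM in *F. sonorensis*. The fourth had 4621, 3754, 4452 and 3559 TPM in *F. ramosissima*, against 685, 592, 594 and 549 TPM in *F. sonorensis*. Neither overlapped between the species, and replicate 4 was the lowest library of each species for both rows. Over the 10 largest differences in this direction, the log2 difference ranged from 2.23 to 3.79, the mean from 1607 to 23885 TPM in *F. ramosissima*, and from 316 to 4083 TPM in *F. sonorensis*.

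Towards *F. sonorensis*, Gene09817 had the largest difference. It had 860.2, 891, 979 and 813 TPM in *F. ramosissima*, against 12442, 13279, 13640.2 and 12171 TPM in *F. sonorensis*. The values were tight within each species, and the level was 14.5 times as high in *F. sonorensis*. The row thus ranked 99 in the core of *F. ramosissima* and 5 in that of *F. sonorensis*, with a difference of -3.86 ± 0.08 (adjusted p = 1.69e-10 by limma). Gene08581 had 1188, 799.9, 1218 and 975 TPM in *F. ramosissima*, against 16548, 12271, 13234 and 13750.0 TPM in *F. sonorensis*. It ranked 93 in *F. ramosissima* and 3 in *F. sonorensis*, and its level was 13.3 times as high in *F. sonorensis*. The difference was -3.75 ± 0.15 (adjusted p = 1.37e-08 by limma). After TMM scaling, both rows were again lower in *F. ramosissima*, at -2.39 and -2.28, and after quantile normalization, at -4.19 and -3.97.

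The next rows in this direction lay near the threshold in *F. ramosissima*. The third had 342, 325, 389 and 299 TPM in *F. ramosissima*, against 3491, 3566, 3555 and 3154 TPM in *F. sonorensis*, and the fourth had 295, 335, 388 and 318.5 TPM in *F. ramosissima*, against 2199, 2594, 2523 and 2466 TPM in *F. sonorensis*. For both, replicate 3 was the highest library of *F. ramosissima*. Over the 10 largest differences in this direction, the log2 difference ranged from -3.86 to -2.03, the mean from 334 to 1046 TPM in *F. ramosissima*, and from 1802 to 13951 TPM in *F. sonorensis*. In all, 11 core rows differed towards *F. ramosissima* and 11 towards *F. sonorensis* by at least 2 on the log2 scale. The share of all tested rows that did so was not taken.

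**Figure D5:**
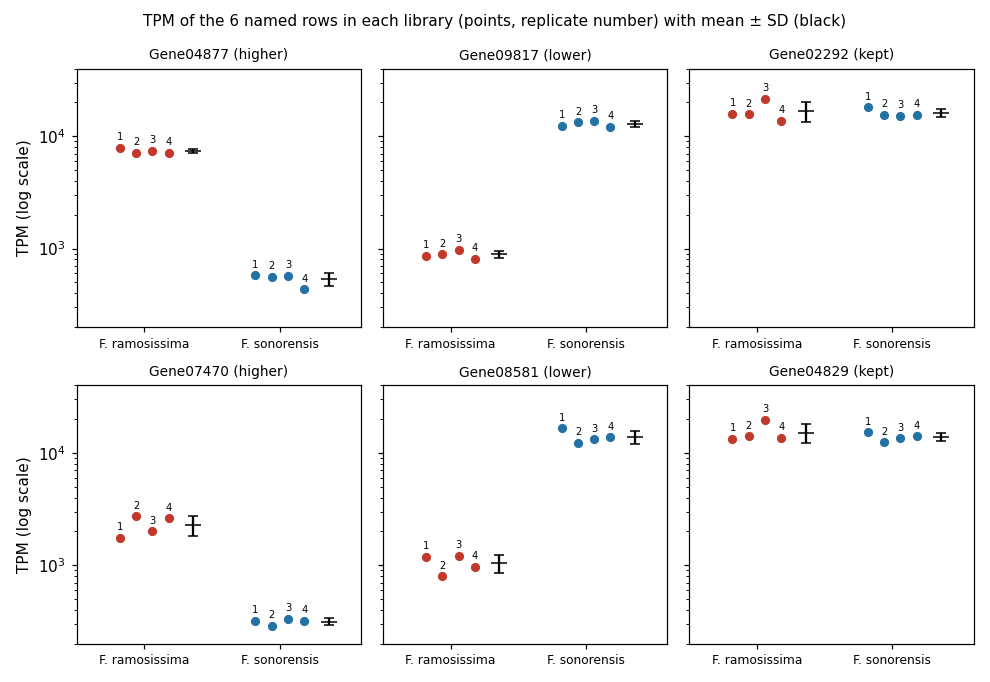
TPM on a log scale of the 6 named rows in each library, with *F. ramosissima* left of *F. sonorensis*, points numbered by replicate and the mean ± SD in black. Gene04877 and Gene07470 are higher in *F. ramosissima*, Gene09817 and Gene08581 are lower, and the values of Gene02292 and Gene04829 overlap between the species.

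The most abundant rows that were not called and lay within 2-fold were Gene02292 and Gene04829, which ranked 2 and 4 in both species. Gene02292 had 15796, 15704, 21586 and 13764 TPM in *F. ramosissima*, against 18100.2, 15472, 15137 and 15573 TPM in *F. sonorensis*. Its values overlapped, and the difference was 0.04 with a 95% interval from -0.26 to 0.34 (limma, Benjamini-Hochberg adjusted p = 0.781). Gene04829 had 13298, 14082, 19630.2 and 13637 TPM in *F. ramosissima*, against 15257, 12476, 13515 and 14078 TPM in *F. sonorensis*. Its difference was 0.12 with an interval from -0.17 to 0.40 (limma, adjusted p = 0.399). Replicate 3 was the highest library of *F. ramosissima* for both rows, and without it the differences were -0.09 and -0.01. After TMM scaling, both rows were higher in *F. ramosissima*, by 1.51 and 1.59, which is close to the shift of the whole core.

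The classes were filled unevenly along the range of abundance, and the floor of 300 TPM limits how far low rows can differ. In the 47 core rows of lowest abundance, with a mean of 313 to 566 TPM over the 8 libraries, the rule allows a log2 ratio of at most 1.47. There, 38 rows lay within 2-fold, 1 was at least 2-fold higher and 6 were at least 2-fold lower in *F. ramosissima*. In the 47 rows of highest abundance, with a mean of 2049 to 18626 TPM, 21 rows lay within 2-fold, 11 were at least 2-fold higher and 12 were at least 2-fold lower. The largest differences in both directions, 3.79 and -3.86, were among these rows. Shares of all tested rows were not taken by abundance, so these counts describe the core only. The rows within 2-fold changed by a median of 14 places in rank, compared with 62 places for the rows at least 2-fold higher and 66 places for those at least 2-fold lower. This follows largely from how the classes were made, since the same TPM set the ranks.

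The rows within 2-fold held 46.3 ± 0.600% of the core TPM in *F. ramosissima*, compared with 45.1 ± 0.746% in *F. sonorensis*. That these shares are alike follows largely from how the class was made. As follows from how the classes were made, the rows at least 2-fold higher held more in *F. ramosissima*, at 36.8 ± 0.358%, against 9.85 ± 0.549% in *F. sonorensis*, and the rows at least 2-fold lower held 10.6 ± 0.536% in *F. ramosissima*, against 39.2 ± 1.39% in *F. sonorensis*.

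The spread between replicates bears on all of these values. The median SD of log2(TPM + 1) over core rows was 0.172 in *F. ramosissima*, compared with 0.148 in *F. sonorensis*. In rows of at least 300 TPM outside the core, it was 0.205 in *F. ramosissima*, compared with 0.175 in *F. sonorensis*, and over all tested rows it was 0.238 in *F. ramosissima*, compared with 0.155 in *F. sonorensis*. In *F. ramosissima*, replicate 3 was the highest library for 74 of the 188 rows and replicate 4 was the lowest for 76, with median deviations of 0.07 and -0.08 on the log2 scale. In *F. sonorensis*, replicate 1 was the highest for 74 rows and the lowest for 64, and without it the median SD was 0.0852. An SD above 0.5 was found for 5 core rows in *F. ramosissima* and 4 in *F. sonorensis*.

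The least reproducible row of *F. ramosissima* had 253, 904, 158 and 852 TPM in replicates 1 to 4 there, against 1943, 2366, 2656 and 3449 TPM in *F. sonorensis*. It had an SD of 1.26 in *F. ramosissima*, and replicates 1 and 3 lay under the threshold. Its values did not overlap between the species even so. The least reproducible row of *F. sonorensis* had 695, 765, 402 and 702 TPM in *F. ramosissima*, against 555, 208, 535 and 720.2 TPM in *F. sonorensis*. Its SD was 0.784 in *F. sonorensis*, with replicate 2 far below the other libraries, and its values overlapped.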

How the data were processed

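RNA-seq was measured in 8 leaf libraries, 4 per species. The authors deposited 1 table of TPM values, 1 column per library. RSEM is named in the submitters' processing notes; not given in the sources used here are its version, the aligner, the reference sequences and the matching of genes between the species. TPM retains no read depth, so depth is unknown and no counting interval was used. Whether the reference or the matching of genes shifted all values of a species, or those of single rows, against the other was not tested. All columns were assigned by species and replicate number. The members and lists were chosen with earlier results of these data known. Lists of photosynthesis, photorespiration, C4 cycle and other leaf cell type genes matched no row, since rows carry numbers only.

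Rows averaging 1 TPM or more over 8 libraries were fitted with limma 3.58.1 (R 4.3.3) on log2(TPM + 1), species as the only term, moderation with trend, two-sided, Benjamini-Hochberg adjustment over all 16323 rows. The step was tested on simulated data, where most changed rows were recovered, fewer of those changed 2-fold than of those changed more, and the share of false calls lay above the nominal level of the adjustment. Far fewer rows were changed there than were called in the data, so its rates need not hold for these libraries. Named rows were, among called core rows without overlap, the 2 that differed most in each direction, and the 2 with the highest mean that were not called and lay within 2-fold. The 10 largest in each direction are given by rank only. Rows singled out for their replicate spread were chosen after their values were seen.

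Alternatives for the fit, 19 in all, were pseudocounts of 0.1 and 5, no filter and a filter at 10 TPM, TMM scaling (unweighted, 5% of abundances and 30% of ratios trimmed), quantile normalization, equal column totals, equal summed core TPM, moderation without trend, the replicate number as a block, each library left out, and median scaling over rows above 0 in all 8 libraries, added after the data were seen. For the core, thresholds of 200 and 500 TPM were tried. Python 3.11.15, numpy 2.4.6, pandas 2.3.3, scipy 1.17.1 and matplotlib 3.10.9 were used otherwise.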

Additional observations from a re-analysis of the deposited data

Results flagged for a closer look

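Dixon's criterion was applied to 32 groups of 4 values, the shares of the core and the rows whose values are given per library. In 3 groups a library stood apart, where chance gives about 1 in 20 for independent groups that were not selected. These groups share libraries and include rows chosen for their level, difference or replicate spread, so that rate need not hold here. For Gene04829 in *F. ramosissima*, replicate 3 was the high value, with a gap to the nearest library of 0.876 of the whole range. For Gene02292 in *F. sonorensis*, replicate 1 was the high value, with a gap of 0.853. For Gene04877 in *F. sonorensis*, replicate 4 was the low value, with a gap of 0.907.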

How the results depend on the processing

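The counts of called, higher, lower, at least 2-fold higher, at least 2-fold lower and within 2-fold core rows stayed within 1.5 times of 142, 67, 75, 37, 38 and 97 under both pseudocounts, no filter, the filter at 10 TPM, quantile normalization, equal column totals, equal summed core TPM, moderation without trend and the replicate block. TMM scaling gave 154 higher, 13 lower, 126 and 6 at least 2-fold higher and lower, 34 within 2-fold and a median difference of 1.44. Median scaling, added after the data were seen, gave 148, 14, 121, 8, 33 and 1.37 for the same quantities, with a median of 0.17 over all tested rows. Shares over all tested rows were taken only for the deposited TPM, TMM scaling and quantile normalization. For the other alternatives, here and below, the counts show only how far the core counts moved. TMM scaling turned 41 of the 142 calls to the opposite direction. The median difference was -0.30 after quantile normalization and -0.093 with equal column totals. Leaving out each library gave 135 to 141 called, 64 to 69 higher, 69 to 74 lower, 36 to 38 and 35 to 38 at least 2-fold higher and lower, 89 to 96 within 2-fold, medians of -0.048 to -0.0060, 185 to 189 core rows, shares of 41.5 to 43.0% in *F. ramosissima* and 44.2 to 45.0% in *F. sonorensis*, rho of 0.559 to 0.584, and a median replicate SD of 0.136 to 0.179 in *F. ramosissima* and 0.0852 to 0.166 in *F. sonorensis*. At 200 TPM, the core had 268 rows with 45.9% of TPM in *F. ramosissima*, compared with 48.0% in *F. sonorensis*. At 500 TPM, it had 114 rows with 37.6% in *F. ramosissima* and 38.8% in *F. sonorensis*, and rho was 0.507. TMM scaling before the rule gave 165 rows, of which 149 were shared with the 188.

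Gene02292 changed sign to -0.11 after quantile normalization, -0.030 with equal column totals and -0.090 without replicate 3 of *F. ramosissima* (leaving out each library gave -0.090 to 0.13), and Gene04829 to -0.12 after quantile normalization and -0.013 without that library (-0.013 to 0.17). They were called only after TMM scaling and, at 1.43 and 1.51, after median scaling. The other 4 named rows kept direction and call in all 19 alternatives.

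Both species share replicate numbers. Deviations of same-numbered libraries correlated by 0.14, 0.14, 0.01 and 0.09 over tested rows and 0.41, 0.09, -0.15 and 0.17 over the core, so the numbers were not taken to pair the samples. Over tested rows, 3 of 4 *F. ramosissima* libraries correlated best with their own number, and 1 of 4 over the core. The replicate block gave 145 called core rows, 68 higher and 77 lower, with no call lost and 100 within 2-fold.

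Precision is limited by 4 libraries per species and by unknown depth, and the cause of the shift between scalings was not tested.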
